A study of Homo sapiens with 4 samples.

Results

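Tropomyosins and contractile genes of the stress fiber were examined in MDA-MB-231-LM2 (LM2) and in its parental line MDA-MB-231, a human triple-negative breast cancer cell line. LM2 is the subline labelled as highly metastatic to the lung, and MDA-MB-231 is labelled as parental. The group holds 10 genes chosen by name, which are the tropomyosin genes TPM1, TPM2, TPM3 and TPM4, the smooth muscle actin gene ACTA2, and TAGLN, MYL9, CALD1, CNN1 and ACTN1. They are 10 of 34616 genes with a symbol and are listed as 37 of 65423 transcripts. Each gene is represented by its transcript of highest mean count. LM2 cells were kept in DMEM under air with added CO2, and MDA-MB-231 cells in Leibovitz medium under air alone, both with 10% FBS, so any difference of culture and any difference of cell line cannot be told apart.

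Stress fibers are bundles of actin filaments that contract through non-muscle myosin II and pull on focal adhesions. Tropomyosins are coiled coils that lie along the actin filament and govern which partners bind it. α-Actinin crosslinks the filaments, and the regulatory light chain switches the myosin motor on when it is phosphorylated. Caldesmon, calponin and transgelin bind the filament beside tropomyosin and are classic genes of the smooth muscle contractile programme, which fibroblasts and mesenchymal tumor cells also use. Many of these genes are driven by serum response factor (SRF) with its actin-sensing coactivators, and by TGFβ.

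Although 2 samples per cell line are labelled, only 1 column of values was deposited for each, with 128985870 counts in LM2 and 130689252 in MDA-MB-231. No spread between cultures could be measured, so no p-value is given. Ratios compare the LM2 count with the MDA-MB-231 count once both are divided by their column totals, and carry an exact (Clopper-Pearson) 95% interval that covers counting error only. RPKM, in which a count is divided by the length of its transcript and by the total of its column, was used wherever levels of different genes were compared, with exact Poisson 95% intervals. The labelled cell type fitted VIM and the hormone receptor genes. VIM, the mesenchymal intermediate filament, had 951 RPKM in LM2 and 550 in MDA-MB-231. The estrogen receptor ESR1 had 8 counts in LM2 and 2 in MDA-MB-231. The progesterone receptor PGR had 2 counts in LM2 and 7 in MDA-MB-231. ERBB2, which encodes HER2, was detected, at 3.22 RPKM in LM2 and 4.91 in MDA-MB-231.

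Promoter windows are shown first for the genes to which the results return, from 250 bases before to 50 bases after a RefSeq start site (GRCh38.p14), on the gene strand. Both windows of ACTA2 are given because ACTA2 was over 2-fold lower in LM2. Those of TPM4 and ACTN1 are the windows of these genes that hold a CArG box, the binding motif of SRF (CC, then 6 bases that are A or T, then GG). Capitals mark a CArG box, the SMAD box CAGAC or the TEAD site GGAATG on either strand and, in ACTA2, CArG boxes with 1 other base among the 6.
ACTA2 upstream start, chr10:88991288-88991587, minus strand: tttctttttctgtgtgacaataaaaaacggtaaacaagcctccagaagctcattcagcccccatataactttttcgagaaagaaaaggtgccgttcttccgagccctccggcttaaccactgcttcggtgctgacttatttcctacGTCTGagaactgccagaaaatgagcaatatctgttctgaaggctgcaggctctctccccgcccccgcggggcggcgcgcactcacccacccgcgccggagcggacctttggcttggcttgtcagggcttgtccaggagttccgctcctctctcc
ACTA2 downstream start, chr10:88952724-88953023, minus strand: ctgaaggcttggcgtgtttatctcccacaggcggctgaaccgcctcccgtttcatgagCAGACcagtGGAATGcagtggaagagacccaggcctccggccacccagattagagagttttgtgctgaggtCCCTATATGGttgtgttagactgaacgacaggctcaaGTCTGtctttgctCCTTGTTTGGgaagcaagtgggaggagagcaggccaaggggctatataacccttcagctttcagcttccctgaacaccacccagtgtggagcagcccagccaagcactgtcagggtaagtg
TPM4, chr19:16067288-16067587, plus strand: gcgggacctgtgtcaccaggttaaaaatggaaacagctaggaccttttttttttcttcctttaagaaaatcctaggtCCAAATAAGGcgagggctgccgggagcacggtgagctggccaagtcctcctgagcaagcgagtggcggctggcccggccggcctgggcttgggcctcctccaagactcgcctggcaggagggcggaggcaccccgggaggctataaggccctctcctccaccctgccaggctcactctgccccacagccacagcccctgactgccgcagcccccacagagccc
ACTN1, chr14:68977517-68977816, minus strand: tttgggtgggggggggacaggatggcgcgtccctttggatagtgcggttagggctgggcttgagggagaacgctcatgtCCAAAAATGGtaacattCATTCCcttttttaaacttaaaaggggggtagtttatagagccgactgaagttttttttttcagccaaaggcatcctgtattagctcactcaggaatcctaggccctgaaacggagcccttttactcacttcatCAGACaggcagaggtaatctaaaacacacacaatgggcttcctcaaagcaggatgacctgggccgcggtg

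Of the 10 genes, 8 had 19 such windows in the table, and TAGLN and MYL9 had none. A CArG box lay in 2 of the 19 windows, against 1.29% of 35116 promoter windows of all genes. These were CCAAATAAGG in TPM4, at positions -173 to -164 from the start, and CCAAAAATGG in ACTN1, at -171 to -162. With 1 other base allowed among the 6, a form tried after the first search was seen, 4 windows matched, against 8.13% of all windows. The downstream start of ACTA2 had 2 such matches, CCCTATATGG at -121 to -112 and CCTTGTTTGG at -71 to -62. A window of CALD1, not shown, had CCTAAAGAGG at -26 to -17. The other windows were those of TPM4 and ACTN1 named above. The SMAD box was found in 11 windows of 5 genes, against 45.3% of all windows, and the TEAD site in 4 windows of 3 genes, against 14.03%. The AP-1 site TGACTCA was found in 0 windows, against 4.95%. A match is a description of letters and was not tested as a binding site.

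MYL9, TAGLN and ACTA2 had lower levels in LM2, by 3.71-fold, 3.13-fold and 2.36-fold, than in the parental line. The cytoskeletal genes TPM1, TPM3, TPM4 and ACTN1, which had the highest levels in LM2, lay within 1.24-fold of MDA-MB-231. TPM2 and CALD1 were in between. Of the 10 genes, 9 had a mean of at least 50 counts, and of these 3 were lower in LM2 by more than 2-fold and 0 were higher by as much. Among the 15469 genes that reached this mean, 6.86% passed 2-fold in the lower direction and 4.6% in the higher direction. At 1.5-fold, 4 of the 9 genes were lower, against 15.4% of all. The median log2 ratio was -0.39 over the 9 genes and -0.00 over all 15469. In bulk RNA, fewer cells of a type and less RNA per cell cannot be told apart. The list was compiled with results of these data known, so these counts describe it and are no test.

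**Figure D1:**
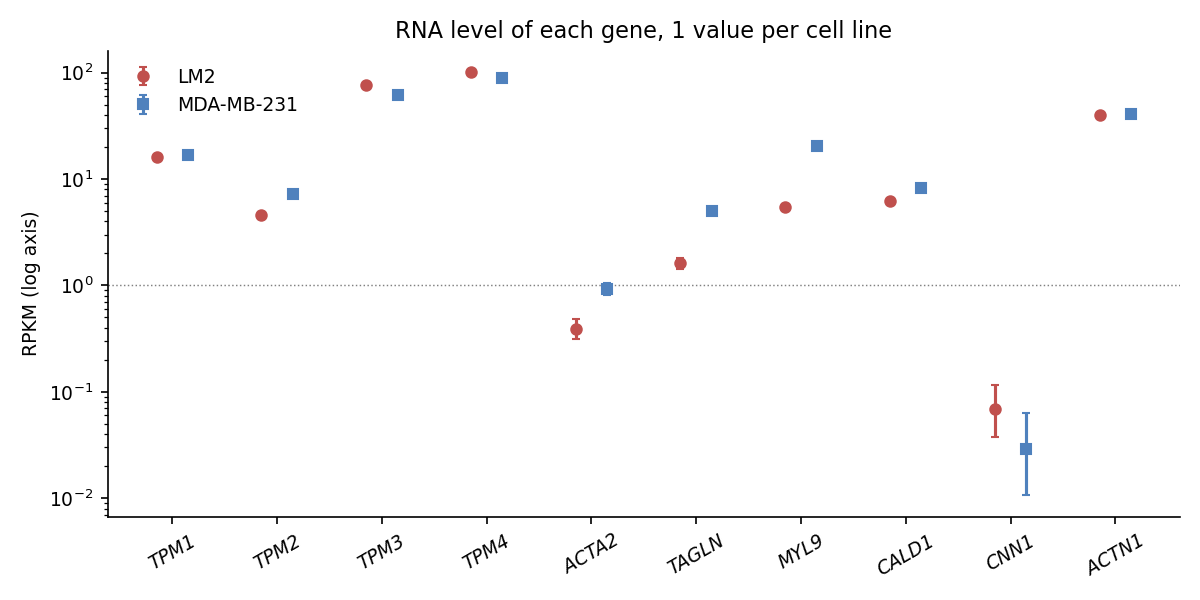
RPKM (y axis, log scale) of the 10 genes (x axis) in LM2 (red circles) and MDA-MB-231 (blue squares), 1 value per cell line, with exact Poisson 95% intervals as bars and a dotted line at an RPKM of 1. TPM4 and TPM3 lie highest in both cell lines, and MYL9 lies at 5.47 in LM2 against 20.3 in MDA-MB-231.

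The order of levels was nearly shared. In LM2 the RPKM was highest for TPM4 (101), followed by TPM3 (76.9), ACTN1 (40.3), TPM1 (16.2), CALD1 (6.27), MYL9 (5.47), TPM2 (4.56), TAGLN (1.61), ACTA2 (0.392) and CNN1 (0.0684). In MDA-MB-231 the order was the same except that MYL9 stood above TPM1 and CALD1. The counting intervals of neighbours in these orders did not overlap in either cell line, but without replicate columns it is not known whether neighbours such as CALD1 and MYL9 in LM2 would keep their places in other cultures. The order of TPM4 and TPM3 in LM2 also depends on the model that stands for TPM3. With its model of highest RPKM, TPM3 had 104 RPKM in LM2, above TPM4, and 83.7 in MDA-MB-231, below TPM4. Against all 15469 genes, TPM4 stood at percentile 97.8 of RPKM in both cell lines. MYL9 stood at percentile 66.0 in LM2, against 90.5 in MDA-MB-231, and TAGLN at percentile 35.2 in LM2, against 63.6.

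The tropomyosin genes differed in direction. TPM3, which encodes short cytoskeletal tropomyosins of non-muscle cells as well as a muscle form, had 45051 counts (76.9 RPKM) in LM2 and 36873 counts (62.2 RPKM) in MDA-MB-231. This is 1.24-fold higher in LM2 (1.22 to 1.26). TPM4, whose products include a short form found on contractile filaments, had 34312 counts (101 RPKM) in LM2 and 30659 (88.7 RPKM) in MDA-MB-231. It was 1.13-fold higher in LM2 (1.12 to 1.15). Both stayed well within 2-fold. TPM1, whose long forms stabilise stress fibers and are often low in carcinoma cells, had 3735 counts (16.2 RPKM) in LM2 and 3893 (16.7 RPKM) in MDA-MB-231. Its ratio of 1.03-fold lower has an interval that takes in no difference (0.98 to 1.08). TPM2, a long tropomyosin of smooth muscle and fibroblasts, was the tropomyosin with the lowest level, at 695 counts (4.56 RPKM) in LM2 and 1110 counts (7.19 RPKM) in MDA-MB-231. It was 1.58-fold lower in LM2 (1.43 to 1.74), and its ratio stood at percentile 13.2 of all genes.

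The summed RPKM of the tropomyosin genes was 198 in LM2 and 175 in MDA-MB-231. TPM4 held 50.7% of it in LM2 and 50.8% in MDA-MB-231, and TPM3 held 38.8% in LM2 and 35.6% in MDA-MB-231. The share of TPM1 was 8.17% in LM2 and 9.54% in MDA-MB-231, and that of TPM2 was 2.30% in LM2 and 4.11% in MDA-MB-231. These shares depend on the model that stands for TPM3. Its model with the highest count is 4539 bases long, and with the model of highest RPKM TPM3 held 46.0% in LM2 and 42.7% in MDA-MB-231, and TPM4 held 44.7% in LM2 and 45.2% in MDA-MB-231.

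**Figure D2:**
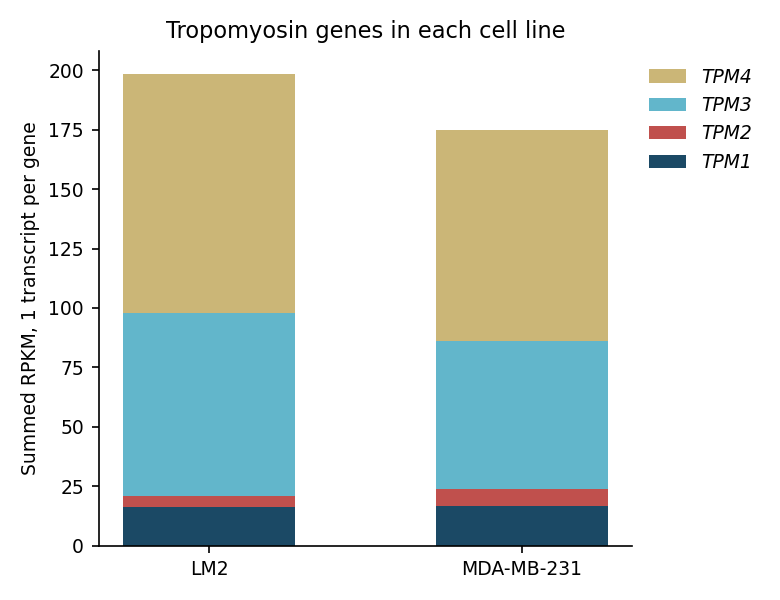
Summed RPKM (y axis) of the tropomyosin genes in LM2 and in MDA-MB-231, 1 column per cell line and 1 transcript per gene, stacked by gene. TPM4 and TPM3 make up most of both bars, and the segment of TPM2 is 4.56 RPKM in LM2 and 7.19 in MDA-MB-231.

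Of the 9 genes that passed the filter, MYL9, TAGLN and ACTA2 differed most. MYL9, a regulatory light chain of myosin II, had 845 counts (5.47 RPKM) in LM2 and 3173 counts (20.3 RPKM) in MDA-MB-231. It was 3.71-fold lower in LM2 (3.43 to 4.0), at percentile 2.26 of all ratios, and its interval lay wholly beyond 2-fold. TAGLN, transgelin or SM22, an actin-binding protein and early smooth muscle marker, had 323 counts (1.61 RPKM) in LM2 and 1023 counts (5.03 RPKM) in MDA-MB-231. It was 3.13-fold lower (2.76 to 3.55), at percentile 2.84, also with an interval beyond 2-fold. ACTA2, smooth muscle α-actin, which myofibroblasts add to their stress fibers, had only 89 counts (0.392 RPKM) in LM2 and 213 counts (0.927 RPKM) in MDA-MB-231. Its 2.36-fold lower level has an interval that holds 2-fold (1.84 to 3.06), and its RPKM was under 1 in both cell lines. On the log2(RPKM + 1) scale its difference was -0.47.

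CALD1, caldesmon, which binds actin, myosin and tropomyosin, had 4228 counts (6.27 RPKM) in LM2 and 5632 (8.24 RPKM) in MDA-MB-231, 1.31-fold lower in LM2 (1.26 to 1.37). CNN1, calponin of differentiated smooth muscle, was close to undetected, with 14 counts in LM2 and 6 in MDA-MB-231. Its ratio of 2.36 has an interval from 0.85 to 7.51, and a difference was not detectable at this depth. ACTN1, the α-actinin of stress fibers and focal adhesions, had 19722 counts (40.3 RPKM) in LM2 and 20234 (40.8 RPKM) in MDA-MB-231. At 1.01-fold lower (0.99 to 1.03) it was nearly equal in both cell lines.

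**Figure D3:**
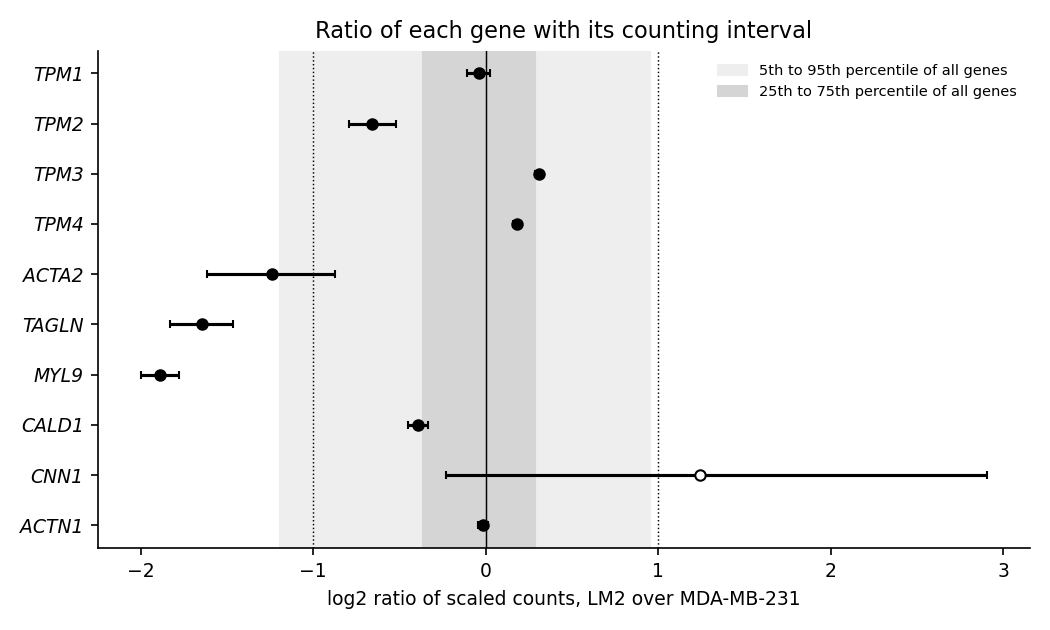
The x axis gives the log2 ratio of scaled counts (LM2 over MDA-MB-231) for the 10 genes on the y axis, 1 value per cell line, with exact 95% counting intervals as bars. The open circle is CNN1, under a mean of 50 counts, grey bands give the spread of all 15469 genes and dotted lines mark 2-fold. MYL9, TAGLN and ACTA2 lie left of the 2-fold line.

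All 37 transcripts of these genes were accounted for, of which 35 have NM_ and 2 have NR_ identifiers. A mean of at least 50 counts was reached by 35. The exceptions were the transcript of CNN1 and NR_103460 of TPM3, which had 0 counts in both cell lines, where a count of 0 allows up to 3. Transcripts of a gene differed little in ratio, by at most 0.07 on the log2 scale (TAGLN). Transcripts of 1 gene can share reads and are not replicates, so this likeness is no independent support. The 7 transcripts of TPM1 ran from 1.03-fold to 1.06-fold lower in LM2, and the 10 transcripts of TPM3 with enough counts from 1.23-fold to 1.25-fold higher. The level, in contrast, differed between the models of TPM1 and of TPM3. Those of TPM1 ran from 8.73 to 16.2 RPKM in LM2 and from 9.20 to 16.7 in MDA-MB-231. For TPM3, NM_152263, a model of 7099 bases, had 9.43 RPKM in LM2 and 7.65 in MDA-MB-231. NM_001278190 of TPM3 had 104 RPKM in LM2 and 83.7 in MDA-MB-231. Both transcripts of MYL9 were over 2-fold lower, NM_006097 by 3.71-fold and NM_181526 by 3.81-fold, as were both of TAGLN (3.13-fold and 3.29-fold) and both of ACTA2 (2.36-fold and 2.43-fold).

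**Figure D4:**
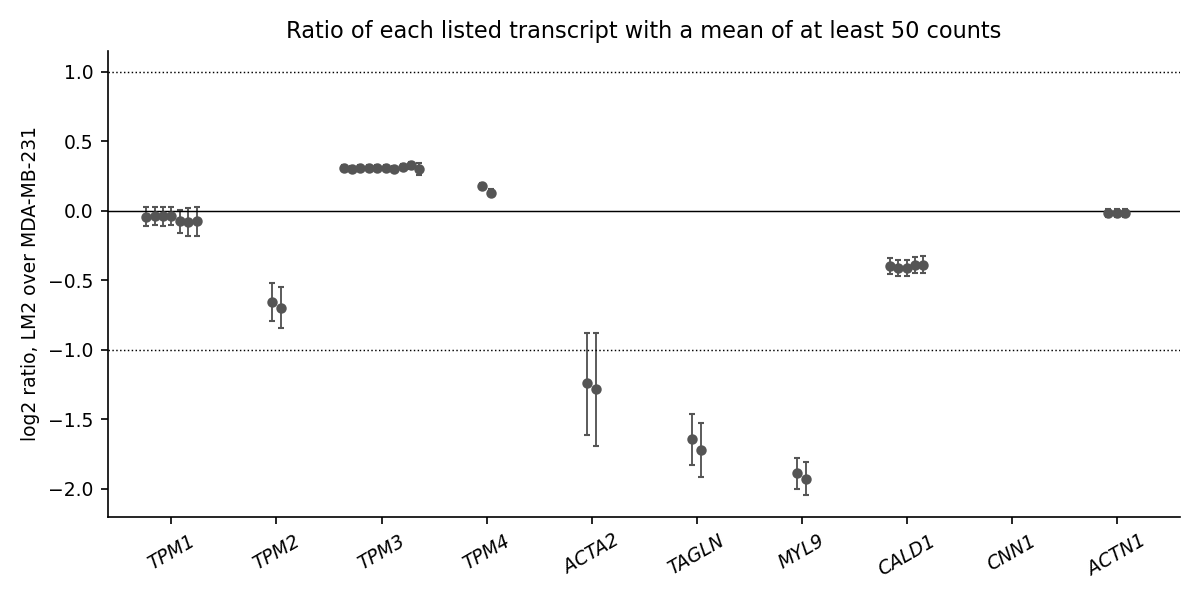
Log2 ratio, LM2 over MDA-MB-231 (y axis), of the 35 transcripts that averaged 50 counts or more, by gene (x axis), with exact 95% counting intervals as bars. Points of 1 gene can share reads and lie within 0.07 of each other, and dotted lines mark 2-fold.

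Overlap with other genes limits some of these values. No strand setting of the counts was known from the sources used here, so reads of a gene and of an antisense partner cannot be told apart. In GENCODE release 29, exons of ACTA2-AS1 on the other strand cover 38.2% of the bases of ACTA2. ACTA2-AS1 had 98 counts in LM2 and 214 in MDA-MB-231, nearly those of ACTA2 itself, and was 2.16-fold lower. Exons of PCSK7, a proprotein convertase, cover 30.2% of TAGLN, and PCSK7 had 1526 counts in LM2 and 1780 in MDA-MB-231 (1.15-fold lower). Exons of AC008894.3 on the other strand cover 14.7% of TPM4. Of the windows of 50 bases along each transcript, 23.9% for TPM3 and 36.2% for TPM4 also occur in transcripts of other genes. For TPM1, TPM2, MYL9, CALD1 and CNN1 this share was 0%, and for ACTN1 it was 0.996%, shared with ACTN4. These shares hold for the GENCODE models only, whose lengths differ from the deposited ones for several genes. The model of ACTA2 has 1349 bases, against 1758 deposited, and that of TPM3 1115 against 4539. That of MYL9 has 2821 against 1197, that of TPM1 933 against 1788 and that of CALD1 3612 against 5232.

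The chromosomal surroundings of each gene were also measured, as the median log2 ratio of its 30 nearest genes that passed the same filter. This was -0.30 for MYL9 on chromosome 20, -0.19 for TAGLN on chromosome 11 and -0.07 for ACTA2 on chromosome 10. Of the 30 neighbours, 0 had a lower ratio than MYL9, 0 a lower one than TAGLN and 2 a lower one than ACTA2. Among all genes these ratios stood at percentiles 2.26, 2.84 and 4.68. Few genes of any kind lie below them, so these counts say little about the surroundings. TPM3 on chromosome 1 lay among its neighbours, whose median was 0.28 against its own 0.31, with 16 of 30 below it. Among all genes the ratio of TPM3 stood at percentile 76.4. For TPM4 on chromosome 19 the median was -0.24, and 28 of 30 neighbours lay below TPM4, whose ratio stood at percentile 66.6 of all genes.

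The rest of the contractile machinery was described through 8 lists of 104 distinct genes, of which 93 passed the filter. In LM2, 11 of them were lower by more than 2-fold and 2 were higher by more than 2-fold, against 6.86% lower and 4.6% higher among all genes measured, and the median log2 ratio was -0.19. The myosin II list was the one with the lowest median (-0.71), with 2 of 6 measured genes over 2-fold lower (6.86% of all genes) and 0 higher (4.6% of all genes). MYLK, the kinase that phosphorylates the regulatory light chain, had 1856 counts in LM2 and 5669 in MDA-MB-231, 3.01-fold lower (2.86 to 3.18). MYH10, the heavy chain of non-muscle myosin IIB, had 2164 counts in LM2 and 5847 in MDA-MB-231, 2.67-fold lower (2.54 to 2.80). The other 4 genes of this list that passed the filter were within 2-fold. Among them the heavy chain MYH9 was 1.32-fold lower. MYH9 had 45.8 RPKM in LM2 and 60.5 in MDA-MB-231, against 2.16 in LM2 and 5.76 in MDA-MB-231 for MYH10. The light chain MYL6 was 1.29-fold higher. MYL12A and MYL12B, the light chains closest to MYL9, were 1.59-fold and 1.67-fold lower and had 54.4 and 118 RPKM in LM2, against 86.6 and 197 RPKM in MDA-MB-231, so that both were more abundant than MYL9 in either cell line.

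Of 14 formin, LIM kinase and cofilin genes, 2 passed 2-fold, both lower, against 11.5% of all genes past 2-fold in either direction (median -0.25). They were the formin DAAM1 (577 counts in LM2 and 1455 in MDA-MB-231, 2.49-fold) and the cofilin phosphatase SSH1 (2750 counts in LM2 and 5936 in MDA-MB-231, 2.13-fold). LIMK1, which phosphorylates cofilin, was 1.76-fold lower, and the profilin PFN2 was 1.77-fold higher. The 2 measured genes among 5 other actins, ACTB and ACTG1, stayed within 2-fold, with ACTB 1.37-fold lower in LM2.

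TAGLN2, CNN3 and ACTN4 had higher RPKM than their paralogs TAGLN, CNN1 and ACTN1 in both cell lines. TAGLN2, a transgelin of non-muscle cells, had 50.1 RPKM in LM2 and 108 in MDA-MB-231 and was 2.16-fold lower (2.11 to 2.21). CNN3, a calponin of non-muscle cells, had 67.2 RPKM in LM2 and 81.8 in MDA-MB-231, and ACTN4, the other non-muscle α-actinin, had 71.4 in LM2 and 88.6 in MDA-MB-231. Among 20 measured crosslinkers and adaptors, 2 passed 2-fold, both lower (6.86% of all genes), with a median of -0.18. By that much 0 genes were higher (4.6% of all genes). SYNPO, synaptopodin, was 1.79-fold lower with 212 counts in LM2 and 385 in MDA-MB-231, and PDLIM1 was 1.70-fold lower. FLNA, filamin A, was 1.41-fold higher (1.40 to 1.42). Of 16 focal adhesion genes, 0 were over 2-fold lower (6.86% of all genes) and 1 was higher (4.6% of all genes), with a median of -0.04. The higher gene was the LIM protein FHL1, with 2458 counts in LM2 and 664 in MDA-MB-231 (3.75-fold, 3.44 to 4.09). The tyrosine kinases SRC and PTK2 were 1.64-fold and 1.31-fold lower, and VCL, vinculin, was 1.26-fold higher.

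SRF itself had 3777 counts in LM2 and 7192 in MDA-MB-231, 1.88-fold lower (1.81 to 1.96). Its coactivators differed in direction, with MRTFA 1.24-fold lower and MRTFB 1.46-fold higher, and MYOCD, the coactivator of smooth muscle, had 0 counts in both cell lines. ELK4, a ternary complex factor, was 1.15-fold lower. None of the 6 measured genes of this list passed 2-fold, against 11.5% of all genes in either direction (median -0.13). Of 17 targets of SRF, its coactivators or YAP, 5 were lower (6.86% of all genes) and 2 higher (4.6% of all genes) by more than 2-fold (median -0.24). ANKRD1, a muscle ankyrin repeat protein, had 6097 counts in LM2 and 37018 in MDA-MB-231, 5.99-fold lower (5.83 to 6.16). The matricellular gene CCN2 was 3.96-fold lower (3.78 to 4.15), with 2262 counts in LM2 and 9075 in MDA-MB-231. THBS1, thrombospondin, was 6.78-fold lower. The higher genes were FHL1 and EGR1, an immediate early factor with 232 counts in LM2 and 90 in MDA-MB-231. VCL and FLNA, also on this list, were within 2-fold.

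**Figure D5:**
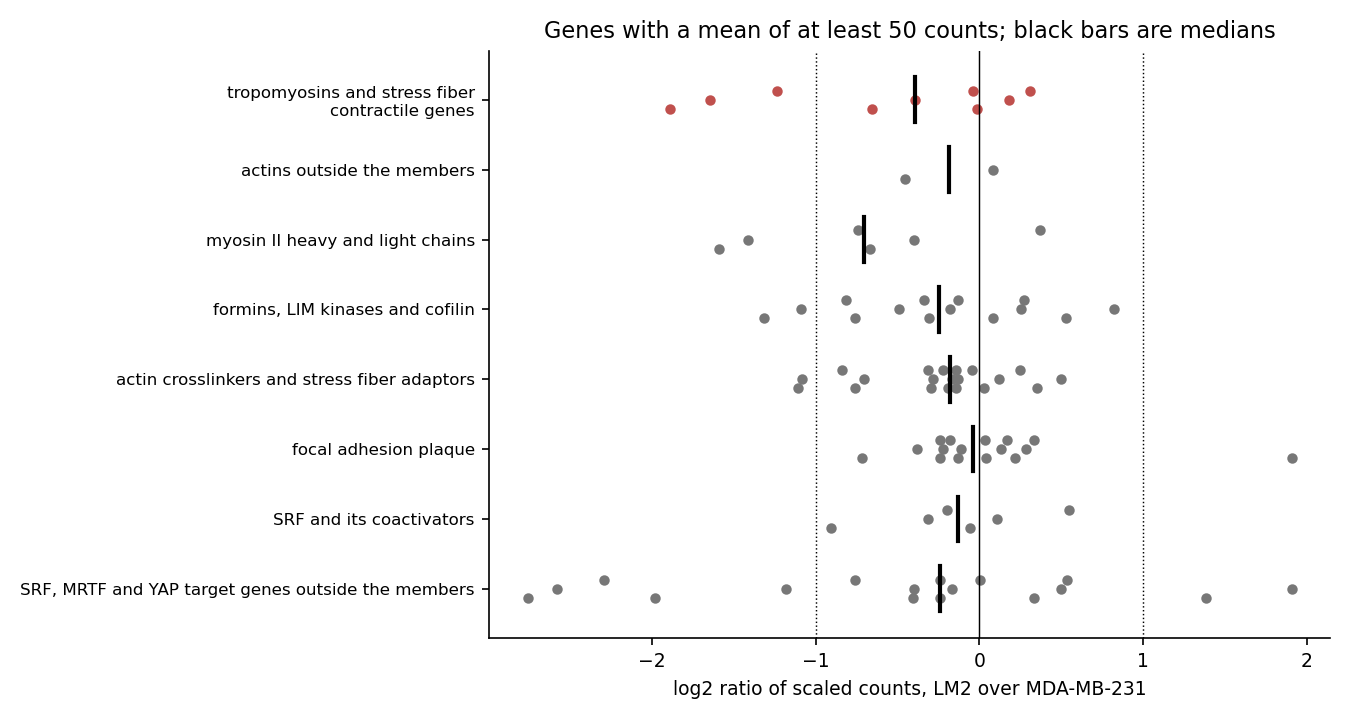
The x axis gives the log2 ratio of scaled counts (LM2 over MDA-MB-231) for each measured gene of the lists on the y axis, 1 value per cell line. The 10 described genes without CNN1 are in red and the other lists shown in grey, black bars are medians, from -0.71 for myosin II to -0.04 for the focal adhesion plaque, and dotted lines mark 2-fold.

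Markers of other cells were scarce. Of 10 smooth muscle and myoepithelial genes, SMTN, smoothelin, had 11.6 RPKM in LM2 and 11.4 in MDA-MB-231 and made up most of the summed RPKM of 12.6 in LM2 and 13.8 in MDA-MB-231. No reads were listed for 3 of these genes in LM2 and for 1 in MDA-MB-231. Of the 4 genes on this list that passed the filter, 1 was over 2-fold lower (6.86% of all genes), OXTR, the oxytocin receptor (3.64-fold). Over 2-fold higher were 0 (4.6% of all genes), with SYNPO2 1.82-fold higher on 72 counts in LM2 and 40 in MDA-MB-231. The defining genes DES (2 counts in each cell line) and MYOCD (0 in each) were at or near 0, and MYH11 had 0.237 RPKM in LM2 and 0.303 in MDA-MB-231. The 8 fibroblast markers summed to 1.05 RPKM in LM2 and 1.56 in MDA-MB-231, with a DCN count of 0 in LM2 and 1 in MDA-MB-231. Within that list COL1A2 was 8.66-fold lower (22 counts in LM2, 193 in MDA-MB-231), PDGFRB 2.83-fold lower (183 counts in LM2, 525 in MDA-MB-231) and COL1A1 2.58-fold higher (532 counts in LM2, 209 in MDA-MB-231), all under 1 RPKM. Of the leukocyte and endothelial markers, PTPRC had 7 counts in LM2 and 8 in MDA-MB-231, CD3E and CDH5 had 0 in both, and only CD68, a lysosomal protein, had an RPKM over 1. PECAM1, an endothelial adhesion molecule, was 7.24-fold higher, with 343 counts in LM2 and 48 in MDA-MB-231. ERBB2 and its chromosomal neighbour GRB7, from the list of luminal and HER2 markers, were 1.52-fold and 3.50-fold lower, and of the markers of the line itself CAV1, AXL and EGFR were 1.48-fold, 1.33-fold and 1.21-fold lower. The part of other cells in the lower levels of MYL9, TAGLN and ACTA2 was not tested.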

How the data were processed

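Total RNA of LM2 and MDA-MB-231 cells was sequenced. Per the labels, bcl2fastq and TopHat2 (version 2.0.13) were used, with the builds hg19 and GRCh37 named. Counting program, strand setting and annotation: not given in the sources used here. For each transcript a read count and an RPKM value were deposited, in 1 column per cell line, and it is not known if a column is a single library. The deposited RPKM equalled count over length and column total, with a relative difference of at most 4.98e-06.

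With 1 column per cell line a test across libraries was not possible. Counts were scaled by column totals, and ratios have exact (Clopper-Pearson) 95% intervals. Counts of 0 entered ratios at a floor of 3 counts over the cell line. Symbols from RefSeq (GRCh38.p14) and GENCODE release 29 were found for 62331 of 65423 transcripts. Neighbours follow gene order in that RefSeq table, and promoter windows are from RefSeq.

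The members and lists were chosen with earlier results of these data known. By rule the text names every gene of the group and, of each list, up to 4 genes with the largest ratio in either direction at a mean of at least 50 counts. FLNA, CNN3, ACTN4, MYH9, MYL6, EGR1, MYOCD, ESR1, PGR, DES, DCN, PTPRC, CD3E, CDH5, ACTA2-AS1, PCSK7 and AC008894.3 were chosen after their values were seen. Some named genes and 1 list that this rule would give are not reported here. The ratio calculation was tested on simulated counts. Alternatives used TMM and upper-quartile factors (edgeR 4.0.16), size factors (DESeq2 1.42.0), totals without the 12 transcripts of most counts, log2(RPKM + 0.1), log2(RPKM + 1), other transcripts per gene, other count minimums and a fold of 1.5. Software was matplotlib 3.10.9, scipy 1.17.1, pandas 2.3.3 and numpy 2.4.6 under Python 3.11.15, and R 4.3.3.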

Additional observations from a re-analysis of the deposited data

How the results depend on the processing

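No paired analysis was possible because each cell line has 1 column, which carries no replicate number. For the same reason no replicate could be left out in turn. MYL9 and TAGLN were over 2-fold lower in LM2 under every alternative run, with log2 ratios from -1.96 to -1.72 for MYL9 and from -1.72 to -1.21 for TAGLN. ACTA2 (-1.31 to -0.47) was within 2-fold on the log2(RPKM + 1) scale, where the count of genes over 2-fold lower was 2, and it also dropped out, leaving 2, when the counting interval had to lie wholly beyond 2-fold. With a fold of 1.5 TPM2 was added, and 4 genes were lower. With no filter on low counts CNN1 entered, and 1 gene was over 2-fold higher. TPM1, TPM2, TPM3, TPM4, CALD1 and ACTN1 kept the sign of their log2 ratio under every alternative run. Leaving the 12 transcripts of most counts out of the totals moved the median of the 9 genes to -0.46. On the log2(RPKM + 1) scale 9 genes of the pathway lists, against 11, were over 2-fold lower. On that scale 1 of them, against 2, was over 2-fold higher. With no filter on low counts, 13 genes of these lists were lower and 3 higher. With a mean of at least 10 counts in place of 50, 1843 genes were over 2-fold lower, against 1061. In the higher direction the counts were 1305 against 712. The lower minimum admits more genes, so these counts come from unlike sets of genes and give no shares.

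With the transcript of highest RPKM standing for each gene, the shares in the summed tropomyosin level were 7.20% for TPM1, 2.03% for TPM2, 46.0% for TPM3 and 44.7% for TPM4 in LM2, and 8.49% for TPM1, 3.66% for TPM2, 42.7% for TPM3 and 45.2% for TPM4 in MDA-MB-231. The shares of TPM1 and TPM2 stayed lower in LM2 than in MDA-MB-231. Depth limits CNN1, with 14 counts in LM2 and 6 in MDA-MB-231, and widens the interval of ACTA2.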

Other observations

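The 2 listed transcripts of TPM4 stood apart by unequal amounts, which was seen after the values were known. NM_003290 exceeded NM_001145160 by 2616 counts in LM2 and by 1342 counts in MDA-MB-231. This excess was 1.98-fold higher in LM2, against 1.13-fold higher for NM_003290 as a whole. It is a net difference, since each model also has bases of its own, and it has no interval or test. For MYL9 the excess of NM_006097 over NM_181526 was 121 counts in LM2 and 381 in MDA-MB-231.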
